A study of Mus musculus with 12 samples.

Results

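The 9 genes described here make, store, carry and break down retinoids: the retinoic acid hydroxylases Cyp26a1, Cyp26b1 and Cyp26c1, the retinal reductase Dhrs3, the retinol esterifying enzyme Lrat, the retinal dehydrogenase Aldh1a2, the membrane transporter of retinol Stra6, and the cellular retinoic acid binding proteins Crabp1 and Crabp2. They were taken by symbol from the platform annotation. Each of the 9 had 1 probe set of its own, and they are 9 of the 19938 genes measured. The samples were mouse R1 embryonic stem cells on a 1-colour Affymetrix gene array, 12 arrays in 6 groups of 2. In RA KD1, RA KD2 and RA Scrambled, cells were treated for 4 days with retinoic acid at 1 µM, in medium with 10% serum that lacked leukemia inhibitory factor. ESC KD1, ESC KD2 and ESC Scrambled cells were growing stem cells in 15% serum with 1000 U/ml of that factor and no added retinoic acid. KD1 and KD2 are knockdown lines of Set, a histone chaperone and phosphatase inhibitor, each described by the labels as a clone, and Scrambled is the control line. Effects of the knockdown and of the line therefore cannot be told apart. The states differ in retinoic acid, serum and the factor at once, so no change between them can be credited to retinoic acid alone.

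Cells take up retinol from its serum carrier through STRA6, and LRAT esterifies it for storage. Retinol is oxidised to retinal, and ALDH1A2 turns retinal into retinoic acid, while DHRS3 reduces retinal back to retinol. CRABP2 hands retinoic acid to its nuclear receptors, CRABP1 holds it in the cytoplasm, and the CYP26 enzymes hydroxylate it for removal. Several of these genes are textbook targets of the receptors, so that retinoic acid raises the enzymes that remove it.

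Set itself was read by a bright probe set that also covers BC085271. It gave 11.28 and 11.16 log2 units in RA KD1, 11.70 in RA KD2 replicate 1, and 12.27 and 12.29 in RA Scrambled. The ESC readings were 12.13 and 11.94 for KD1, 12.15 for KD2 replicate 1, and 12.93 and 12.71 for Scrambled. The signal stood at 48.1% of scrambled in RA KD1 (adjusted p = 0.00026 by limma), 66.6% in RA KD2 (adjusted p = 0.0681), 58.2% in ESC KD1 (adjusted p = 0.00521) and 62.9% in ESC KD2 (adjusted p = 0.0374). With all 12 arrays as labelled, the adjusted p by limma was 0.00773 in RA KD1, 0.298 in RA KD2, 0.0985 in ESC KD1 and 0.074 in ESC KD2. A second bright probe set annotated to Set stood at 51.8% of scrambled in RA KD1 and 59.5% in ESC KD1. Its adjusted p was 0.000649 and 0.00825 by limma, and 0.0294 and 0.226 with all 12 arrays. None of the 2 dimmer probe sets of Set alone was called in these comparisons. They stood at 107% and 118% of scrambled in RA KD1, and at 116% and 118% in RA KD2. In ESC they stood at 66.3% and 80.3% in KD1, and at 95.8% and 101% in KD2. The lower Set signal in RA thus rests on the bright probe sets. The second KD2 array of each state, labelled ESC KD2 replicate 2 or RA KD2 replicate 2, went against its label (Set read 11.87 and 11.99 there). Over all probe sets, their mean correlation with arrays of their own labelled state was 0.968 and 0.967, and with the other state it was 0.989 for each. In the other 10 arrays the correlation with the own state was at least 0.984, and with the other state at most 0.971. Tests below therefore come from a limma fit of 10 arrays, where KD2 is 1 array per state whose spread is borrowed from the other groups, and the fit of all 12 arrays as labelled is given beside them. Over 12 embryonic stem cell markers, the mean level was between 11.37 and 11.77 log2 units in the 5 ESC arrays of the fit, against 8.56 to 9.25 in the 5 RA arrays.

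Cyp26a1 (probe set 10462853, chr19:37697738-37701536 in GRCm38.p6, the build of all coordinates here) stood at the top of its range in RA and at the bottom in ESC. It read 12.43 and 12.49 log2 units in RA KD1, 11.58 in RA KD2 replicate 1, and 11.51 and 10.89 in RA Scrambled. ESC KD1 had 6.58 and 6.56, ESC KD2 replicate 1 had 7.05, and ESC Scrambled had 6.50 and 6.40. The 2 arrays set apart read 11.34 (labelled ESC KD2) and 6.83 (labelled RA KD2). The RA and ESC arrays of the fit did not overlap, and every ESC array lay under 7.22, the median of all values on the arrays. Cyp26a1 encodes the main retinoic acid hydroxylase of the early embryo.

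The Cyp26a1 promoter is shown because it was the one member promoter with a retinoic acid response element in the window searched. The window runs from 250 bases before to 50 bases after a RefSeq start site on chr19:37697558-37697857, plus strand, GRCm38.p6. The capitals mark the 17 bases of a DR5 element, a pair of receptor half-sites in the same direction with a spacer of 5 bases.

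Cyp26a1 promoter: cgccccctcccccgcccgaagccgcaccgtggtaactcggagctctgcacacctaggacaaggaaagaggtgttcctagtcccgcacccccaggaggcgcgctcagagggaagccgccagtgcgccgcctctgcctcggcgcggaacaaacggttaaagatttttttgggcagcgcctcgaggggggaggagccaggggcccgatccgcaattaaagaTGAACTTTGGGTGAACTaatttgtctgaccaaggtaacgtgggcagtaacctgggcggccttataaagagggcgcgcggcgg

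The element lies on the strand opposite to the gene, from 32 to 16 bases before the start site of this window. The gene span given above begins upstream of that start site, and the element lies within the span. Read along its own strand, it is set here beside the DR5 of Rarb, a retinoic acid receptor gene that its own ligand is known to raise (window chr14:16575427-16575726, minus strand, GRCm38.p6; element from 53 to 37 bases before the start site, on the gene's strand). Half-sites are in capitals and spacers in lower case.

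Cyp26a1 DR5: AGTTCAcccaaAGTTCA
Rarb DR5: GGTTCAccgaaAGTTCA

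The DR1, DR2 and DR5 arrangements of the half-site were searched on both strands of all 32851 windows, and a stretch could count under more than 1 of them. DR5 was found in 32 windows (0.0974%), DR2 in 88 (0.268%) and DR1 in 73 (0.222%). Windows were held for 8 of the 9 members, 13 windows in all, and 1 of them held a DR5 while 0 held a DR2 or a DR1. The absence of these letters from so short a window says nothing about elements elsewhere. Of the 11 measured genes with a DR5 in a window, 3 were called higher in RA than in ESC in scrambled cells (27.3%, against 21.8% of all genes) and 1 lower. The corresponding counts were 4 higher (28.6%) and 2 lower of 14 for DR2, and 4 higher (10.5%) and 13 lower of 38 for DR1. Of all genes, 20.8% were called lower.

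**Figure D1:**
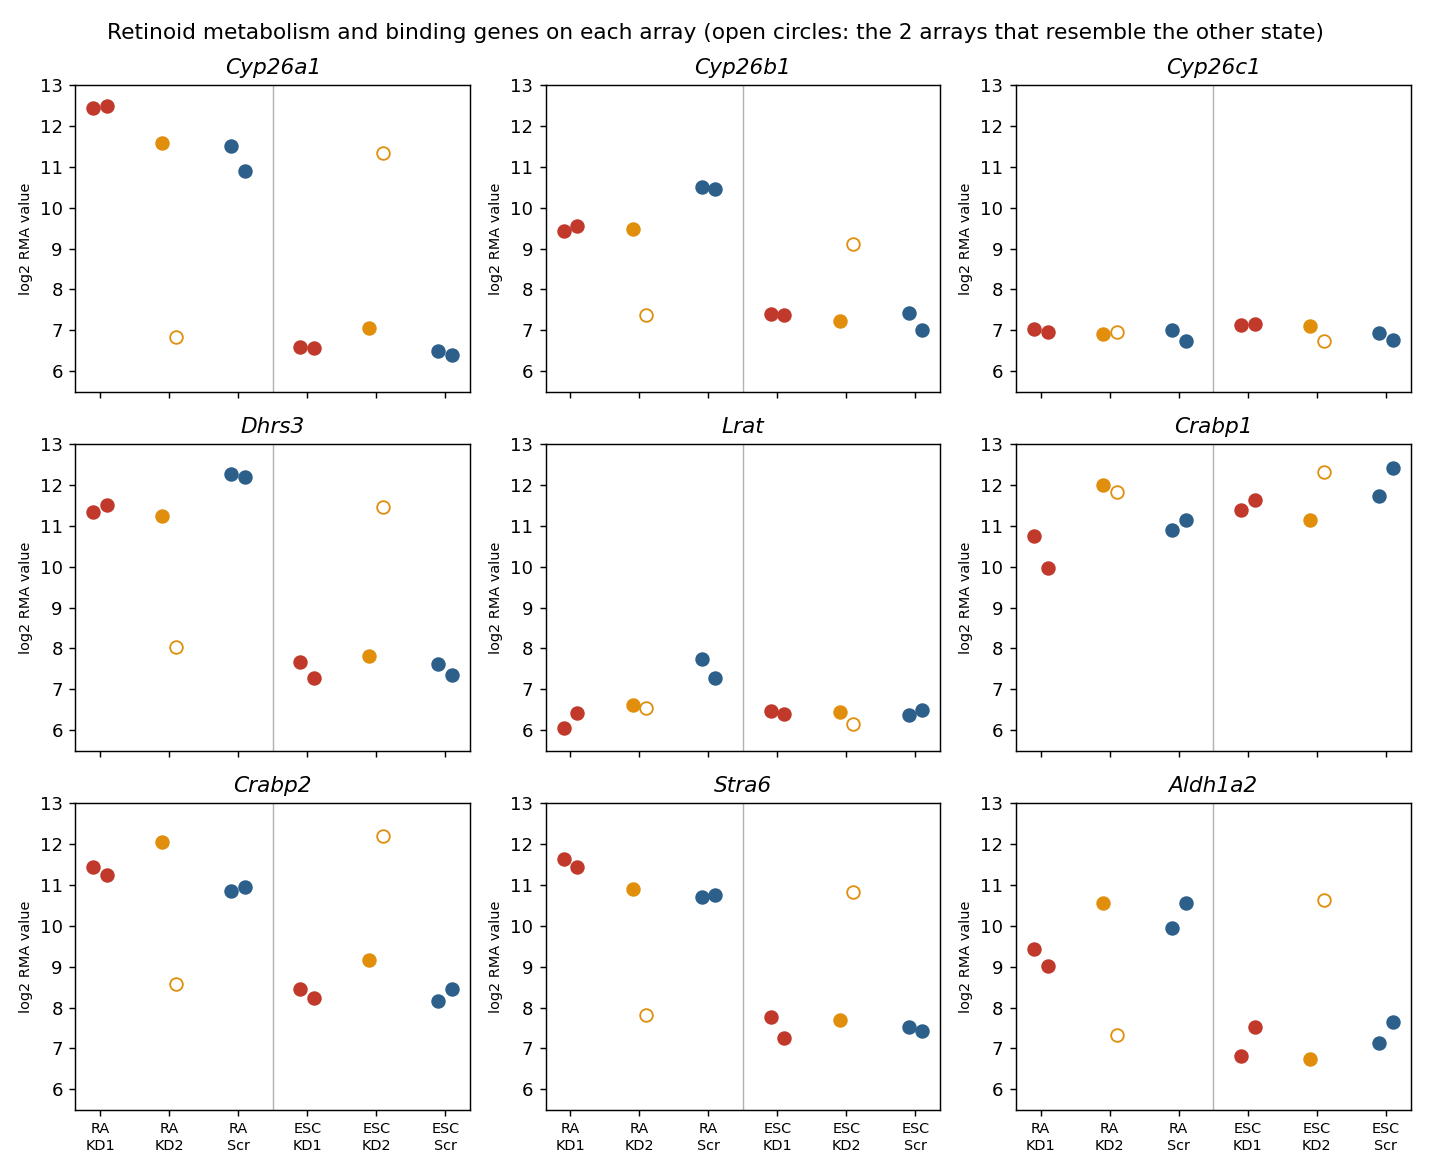
Log2 RMA value (y axis) of each of the 9 genes on each array, by group (x axis; Scr is Scrambled), with 1 circle per array and open circles for the second KD2 array of each state. Cyp26a1 lies between 10.89 and 12.49 in the RA arrays of the fit and between 6.40 and 7.05 in the ESC arrays, while Cyp26c1 lies between 6.75 and 7.17 in all 12.

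In scrambled cells, RA over ESC was called higher for 7 of the 9 genes and lower for 1. All genes gave 21.8% called higher and 20.8% called lower in this comparison. The members' median difference was 2.86 on the log2 scale, against -0.04 over all genes. Cyp26a1 rose by 4.75 (SE 0.18, 27.0-fold, adjusted p = 5.55e-07 by limma), with 2 arrays per group. With all 12 arrays as labelled the difference was the same and the pooled spread larger (SE 1.54, adjusted p = 0.0633), and 3 of the 9 were called, Cyp26b1, Dhrs3 and Lrat, against 13.8% of all genes called either way. Markers of the cell types moved with the state: 11 of 12 stem cell markers fell and 0 rose, 9 of 10 mesenchymal markers rose and 1 fell, and 11 of 15 extraembryonic endoderm markers rose and 1 fell. Their summed linear signals in RA Scrambled were 7316 to 9868, 18294 to 22208 and 24842 to 25266, against 43805 to 48175, 3477 to 3678 and 8762 to 9385 in ESC Scrambled. Of 9 trophoblast markers 3 rose and 2 fell (23518 to 23684, against 6540 to 8953), and of 11 neural markers 3 rose and 3 fell (3701 to 4163, against 2555 to 2766). The fit of 12 arrays called 7 stem cell markers lower, and 6 mesenchymal, 3 extraembryonic endoderm, 3 trophoblast and 2 neural markers higher, with 1 extraembryonic endoderm marker lower. Their part in the members' differences was not tested.

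Cyp26b1 (probe set 10545771, chr6:84571414-84593908), another hydroxylase, was also higher in RA. It read 9.43 and 9.55 in RA KD1, 9.48 in RA KD2 replicate 1, and 10.52 and 10.46 in RA Scrambled. In ESC its readings were 7.39 and 7.37 in KD1, 7.22 in KD2 replicate 1, and 7.41 and 7.0 in Scrambled. The RA Scrambled pair was the highest of all groups, and RA KD1 and RA KD2 sat side by side about 1 log2 unit under it. The second KD2 arrays read 9.10 under the ESC label and 7.38 under the RA label. In scrambled cells Cyp26b1 rose by 3.28 (SE 0.15, 9.73-fold, adjusted p = 9.87e-07 by limma; adjusted p = 0.037 with all 12 arrays).

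The hydroxylase gene Cyp26c1 (probe set 10462846, chr19:37685112-37693320) ends 4417 bases before Cyp26a1 begins. It read between 6.75 and 7.17 on all 12 arrays, under the median of all values on each. It was not called in any of the 10 comparisons by limma, and RA over ESC was -0.14 in KD1, -0.20 in KD2 and 0.02 in scrambled cells (SE 0.12, 0.18 and 0.12). Its neighbour Cyp26a1 thus changed with the state in each line in the fit of 10 arrays, while Cyp26c1 stayed dim. In KD2 the Cyp26a1 change rests on 1 array per state, and with all 12 arrays as labelled it was 0.007.

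Dhrs3 (probe set 10510129, chr4:144892534-144928209), which returns retinal to retinol, was also higher in RA in each line. It read 11.33 and 11.50 in RA KD1, 11.25 in RA KD2 replicate 1, and 12.27 and 12.18 in RA Scrambled. The ESC arrays gave 7.66 and 7.29 in KD1, 7.81 in KD2 replicate 1, and 7.62 and 7.34 in Scrambled. In scrambled cells Dhrs3 rose by 4.75 (SE 0.16, 26.9-fold, adjusted p = 3.31e-07 by limma; adjusted p = 0.0426 with all 12 arrays). The RA and ESC arrays of the fit did not overlap, and those set apart read 11.47 (labelled ESC KD2) and 8.03 (labelled RA KD2).

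Lrat (probe set 10498978, chr3:82892582-82903974), which stores retinol as its ester, stood out by its pattern over groups. Only RA Scrambled lay above the median of all values, at 7.75 and 7.27. RA KD1 read 6.06 and 6.42 and RA KD2 replicate 1 read 6.63. ESC KD1 had 6.47 and 6.41, ESC KD2 replicate 1 had 6.44, and ESC Scrambled had 6.39 and 6.50. Both arrays set apart were dim as well, at 6.15 (labelled ESC KD2) and 6.55 (labelled RA KD2). In scrambled cells Lrat rose by 1.07 (SE 0.17, 2.10-fold, adjusted p = 0.000971 by limma; adjusted p = 0.0279 with all 12 arrays).

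Stra6 (probe set 10585803, chr9:58063793-58154004), the retinol transporter, read 11.63 and 11.44 in RA KD1, 10.89 in RA KD2 replicate 1, and 10.70 and 10.76 in RA Scrambled. The ESC readings were 7.76 and 7.26 in KD1, 7.69 in KD2 replicate 1, and 7.53 and 7.43 in Scrambled. RA KD1 was the highest pair, and the states did not overlap in the arrays of the fit. The arrays set apart read 10.83 (labelled ESC KD2) and 7.82 (labelled RA KD2). In scrambled cells Stra6 rose by 3.26 (SE 0.17, 9.56-fold, adjusted p = 1.69e-06 by limma; adjusted p = 0.0647 with all 12 arrays).

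Aldh1a2 (probe set 10586865, chr9:71215789-71296243), the enzyme that makes retinoic acid in much of the embryo, read 9.43 and 9.01 in RA KD1, 10.55 in RA KD2 replicate 1, and 9.93 and 10.56 in RA Scrambled. ESC KD1 gave 6.81 and 7.51, ESC KD2 replicate 1 gave 6.75, and ESC Scrambled gave 7.14 and 7.64. RA KD1 was the lowest of the RA groups and did not overlap with the others. The arrays set apart read 10.62 (labelled ESC KD2) and 7.33 (labelled RA KD2). In scrambled cells Aldh1a2 rose by 2.86 (SE 0.29, 7.25-fold, adjusted p = 6.54e-05 by limma; adjusted p = 0.127 with all 12 arrays). Aldh1a2, which makes retinoic acid, and Cyp26a1 and Cyp26b1, which remove it, were thus all higher in RA.

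The binding proteins moved apart in scrambled cells. Crabp2 (probe set 10493108, chr3:87948693-87953372), which hands retinoic acid to its receptors, read 11.44 and 11.24 in RA KD1, 12.03 in RA KD2 replicate 1, and 10.84 and 10.94 in RA Scrambled. Its ESC values were 8.46 and 8.23 in KD1, 9.17 in KD2 replicate 1, and 8.16 and 8.46 in Scrambled. No RA array of the fit overlapped with an ESC array, and the second KD2 arrays read 12.19 (ESC label) and 8.57 (RA label). Crabp2 rose by 2.58 in scrambled cells (SE 0.15, 5.99-fold, adjusted p = 2.46e-06 by limma; adjusted p = 0.123 with all 12 arrays), and in both states the KD2 array was the highest.

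Crabp1 (probe set 10585438, chr9:54764748-54773110), which holds retinoic acid in the cytoplasm, lay above the median of all values on every array and fell in scrambled cells. It read 10.74 and 9.98 in RA KD1, 11.99 in RA KD2 replicate 1, and 10.91 and 11.15 in RA Scrambled. The ESC arrays gave 11.38 and 11.64 in KD1, 11.13 in KD2 replicate 1, and 11.73 and 12.42 in Scrambled. The states overlapped across lines, since RA KD2 replicate 1 lay above every ESC array of the fit but 1. The arrays set apart read 12.30 (labelled ESC KD2) and 11.81 (labelled RA KD2). In scrambled cells the fall was -1.05 (SE 0.27, adjusted p = 0.0113 by limma; adjusted p = 0.0875 with all 12 arrays), and it was not called without ESC Scrambled replicate 2 (-0.71, adjusted p = 0.0574) or without RA Scrambled replicate 1 (-0.93, adjusted p = 0.0823).

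In KD1 cells, 6 of the 9 genes rose in RA and 1 fell, against 20.3% and 20.8% of all genes. Cyp26a1 rose by 5.89 (SE 0.18, 59.2-fold, adjusted p = 1.66e-07 by limma; adjusted p = 0.0449 with all 12 arrays) and Stra6 by 4.03 (SE 0.17, 16.3-fold, adjusted p = 5.92e-07; adjusted p = 0.0461 with all 12 arrays). Dhrs3 (3.94), Crabp2 (2.99), Cyp26b1 (2.11) and Aldh1a2 (2.06) rose as well. Lrat did not pass in KD1 (-0.19, SE 0.17, adjusted p = 0.397). Crabp1 fell (-1.15, SE 0.27, adjusted p = 0.00781), but not without RA KD1 replicate 2 (-0.77, adjusted p = 0.0631). All 12 arrays gave 2 called members, Cyp26a1 and Stra6, against 11.3% of all genes called either way.

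In KD2 cells, with 1 array per state, 6 of the 9 rose and 0 fell, against 11% and 9.46% of all genes. The values were 4.52 for Cyp26a1, 3.80 for Aldh1a2, 3.44 for Dhrs3, 3.20 for Stra6, 2.87 for Crabp2 and 2.26 for Cyp26b1, with adjusted p between 3.27e-05 and 0.000546 by limma. Lrat (0.19, adjusted p = 0.681) and Crabp1 (0.86, adjusted p = 0.153) did not pass. With all 12 arrays as labelled, the members lay between -0.37 and 0.29 in KD2, and 0 were called by limma, 0 at an unadjusted p below 0.05, as were 0 of all genes (344 at an unadjusted p below 0.05).

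**Figure D2:**
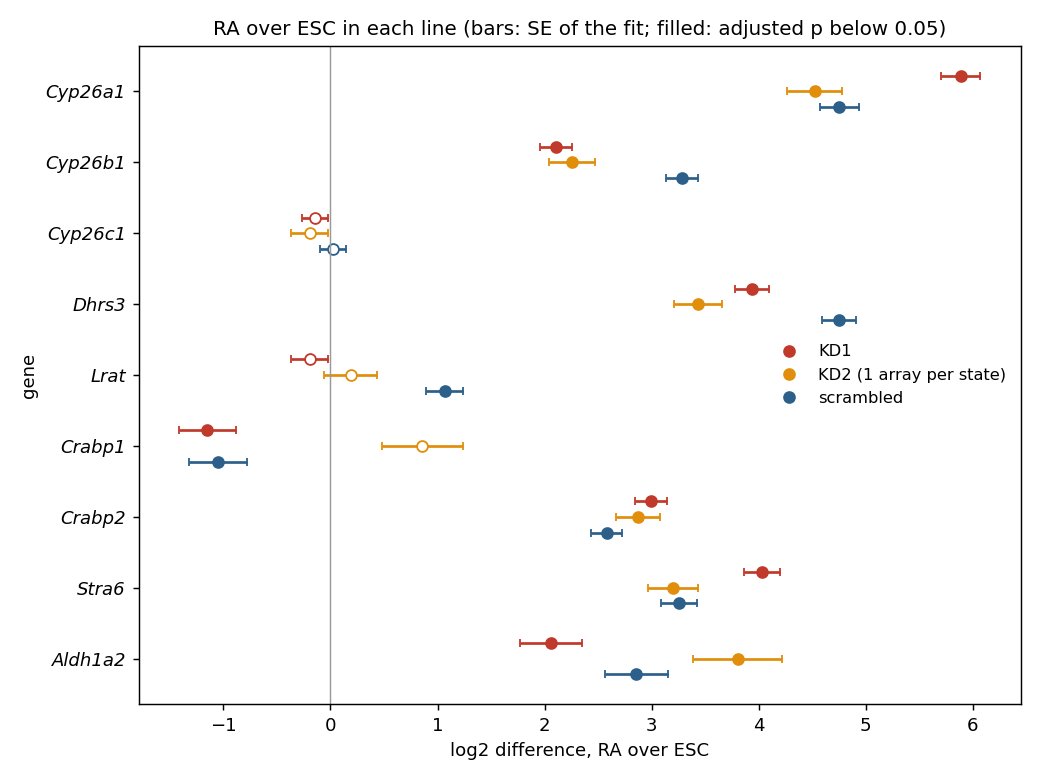
Log2 difference, RA over ESC (x axis), for each of the 9 genes (y axis) in KD1, KD2 and scrambled cells, from the fit of 10 arrays, with bars for the SE and filled points for an adjusted p below 0.05. Cyp26a1 has the largest difference, 5.89 in KD1, 4.52 in KD2 and 4.75 in scrambled cells, and Crabp1 stands at -1.15 in KD1, 0.86 in KD2 and -1.05 in scrambled cells.

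Set against scrambled cells in the same state, RA KD1 had more Cyp26a1 and Stra6 RNA and less Cyp26b1, Dhrs3 and Lrat RNA. In bulk samples, fewer cells of a type and less RNA per cell cannot be told apart. The 2 risen and 3 fallen members compare with 5.39% and 6.69% of all genes. Cyp26a1 rose by 1.26 (SE 0.18, 2.39-fold, adjusted p = 0.00271 by limma), and Stra6 by 0.80 (SE 0.17, 1.75-fold, adjusted p = 0.0151). Lrat fell by 1.27 on the log2 scale (SE 0.17, to 0.415 of scrambled, adjusted p = 0.00188), Cyp26b1 by 1.0 (SE 0.15, to 0.4995, adjusted p = 0.00327) and Dhrs3 by 0.81 (SE 0.16, to 0.569, adjusted p = 0.0111).

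These calls differed in how much they leaned on single arrays. Cyp26a1 (adjusted p up to 0.0403), Cyp26b1 (up to 0.0368) and Lrat (up to 0.021) were called in each of the 8 fits that left out 1 scrambled or KD1 array. Dhrs3 was not called without RA Scrambled replicate 1 (adjusted p = 0.0892), RA Scrambled replicate 2 (0.0556), RA KD1 replicate 1 (0.103) or RA KD1 replicate 2 (0.0701), by limma. Stra6 was not called without the same arrays (adjusted p = 0.102, 0.0721, 0.125 and 0.0789 in that order). The fit of all 12 arrays called Lrat alone (adjusted p = 0.0106, against 2.32% of all genes called either way), and Cyp26a1 (0.863), Cyp26b1 (0.674), Dhrs3 (0.894) and Stra6 (0.877) did not.

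Of the other members in RA KD1, Aldh1a2 stood at -1.02 (SE 0.29, adjusted p = 0.0545 by limma), Crabp1 at -0.67 (SE 0.27, adjusted p = 0.164), Crabp2 at 0.45 (SE 0.15, adjusted p = 0.085) and Cyp26c1 at 0.12 (SE 0.12, adjusted p = 0.633). Over fits that left out 1 array, the adjusted p of Aldh1a2 ran from 0.0321 to 0.339 and that of Crabp2 from 0.0411 to 0.402, and both were called when either ESC Scrambled array was left out (Aldh1a2 also without either ESC KD1 array). In ESC, 0 of the 9 were called in KD1 against scrambled by limma (1 at an unadjusted p below 0.05; 1.92% of all genes called either way), and the differences lay between -0.57 (Crabp1) and 0.29 (Cyp26c1). The fit of 12 arrays likewise called 0 of the 9 there, against 0.0652% of all genes.

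The change from ESC to RA itself differed between KD1 and scrambled cells for 3 members, against 4.82% of all genes. It was larger in KD1 for Cyp26a1 (1.14, SE 0.26, adjusted p = 0.0414 by limma) and smaller for Cyp26b1 (-1.18, SE 0.21, adjusted p = 0.0169) and Lrat (-1.26, SE 0.24, adjusted p = 0.0219). Dhrs3 (-0.81, adjusted p = 0.0877), Stra6 (0.77, adjusted p = 0.119) and Aldh1a2 (-0.80, adjusted p = 0.374) did not pass. Each of the 3 was lost without some single arrays: Cyp26a1 was called in 2 of 8 such fits, Cyp26b1 in 3 and Lrat in 4, with the highest adjusted p at 0.185, 0.0827 and 0.087 in that order. All 12 arrays as labelled gave 0 of the 9 (1 at an unadjusted p below 0.05; 0.261% of all genes called).

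KD2 in RA was 1 array in the fit. Crabp2 was higher there than in RA Scrambled (1.15, SE 0.18, 2.21-fold, adjusted p = 0.0224 by limma) and Cyp26b1 lower (-1.01, SE 0.18, to 0.497, adjusted p = 0.0455), against 0.326% and 0.637% of all genes. Crabp2 was not called without RA Scrambled replicate 1 (adjusted p = 0.131) or 2 (0.0731), or RA KD1 replicate 1 (0.0619) or 2 (0.0622). Cyp26b1 was not called without RA Scrambled replicate 1 (0.2) or 2 (0.125), RA KD1 replicate 1 or 2 (0.104 each), or ESC KD1 replicate 1 (0.0756) or 2 (0.0752). Dhrs3 (-0.98, SE 0.19, adjusted p = 0.0612), Lrat (-0.88, SE 0.21, adjusted p = 0.123), Crabp1 (0.96, adjusted p = 0.283) and Cyp26a1 (0.38, adjusted p = 0.605) did not pass, though Dhrs3 was called without any 1 ESC Scrambled or ESC KD1 array (lowest adjusted p = 0.0311). Both comparisons with RA Scrambled share those 2 arrays, so the like values of Cyp26b1 (-1.0 in KD1 and -1.01 in KD2), Dhrs3 (-0.81 and -0.98) and Lrat (-1.27 and -0.88) are not independent of each other.

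With the array labelled RA KD2 replicate 2 included, the KD2 differences in RA became -0.59 for Crabp2 (adjusted p = 0.798 by limma) and -2.06 for Cyp26b1 (adjusted p = 0.326), and 0 of the 9 were called (2 at an unadjusted p below 0.05; 0.271% of all genes). In ESC KD2 replicate 1, 0 of the 9 were called against scrambled by limma (3 at an unadjusted p below 0.05; 0.988% of all genes). Crabp2 was nearest at 0.86 (SE 0.18, adjusted p = 0.073), and it was called without ESC Scrambled replicate 2 (1.01, adjusted p = 0.0371). In ESC KD2 replicate 1 against ESC Scrambled, 3 of 15 extraembryonic endoderm markers rose (summed signal 12614, against 8762 to 9385), and so did 2 of 9 trophoblast markers (16936, against 6540 to 8953) and 1 of 10 mesenchymal markers (8726, against 3477 to 3678). Stem cell markers summed to 38287, against 43805 to 48175, and neural markers to 3576, against 2555 to 2766, and the fit of 12 arrays called 0 markers of the 5 lists. Their part in these values was not tested. All 12 arrays gave 0 called members in ESC KD2 as well, against 0.0853% of all genes.

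The lines also differed from each other in RA. Crabp1 was lower in KD1 than in the KD2 array (-1.63, SE 0.33, adjusted p = 0.0299 by limma), the 1 member called against 3.72% of all genes. It was not called without RA KD1 replicate 2 (-1.25, adjusted p = 0.152), RA Scrambled replicate 1 (0.0564) or RA Scrambled replicate 2 (0.0566), nor with all 12 arrays (-1.54, adjusted p = 0.123; 0 of the 9 called, 1 at an unadjusted p below 0.05; 1.34% of all genes). Cyp26a1 (0.88, adjusted p = 0.074; called without either RA Scrambled array), Crabp2 (-0.70, adjusted p = 0.0755; called without either ESC Scrambled array) and Aldh1a2 (-1.33, adjusted p = 0.0898) did not pass. For KD2 against scrambled, the change from ESC to RA differed for 0 of the 9 by limma (4 at an unadjusted p below 0.05; 0.351% of all genes); Crabp1 (1.91, SE 0.46, adjusted p = 0.175) and Dhrs3 (-1.31, SE 0.28, adjusted p = 0.108) had the largest values, and without ESC Scrambled replicate 1 Crabp1 and Cyp26b1 were called. The fit of 12 arrays also gave 0 (3 at an unadjusted p below 0.05; 0.0201% of all genes).

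**Figure D3:**
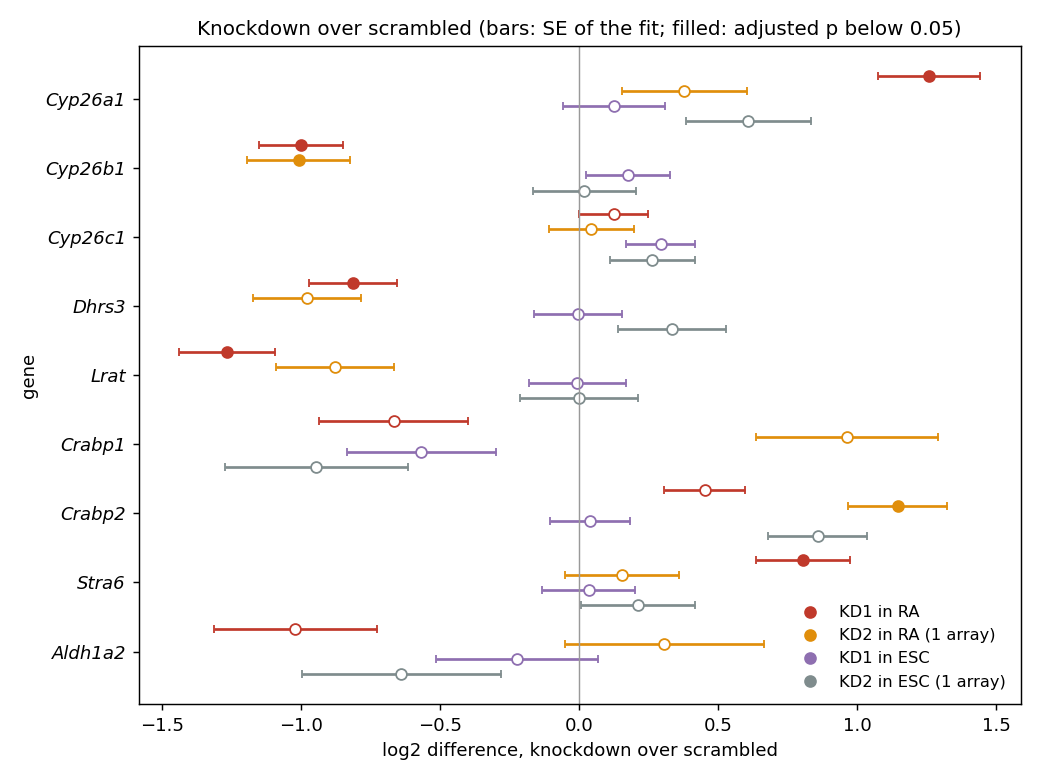
Log2 difference, knockdown over scrambled (x axis), for each of the 9 genes (y axis), for KD1 in RA, KD2 in RA, KD1 in ESC and KD2 in ESC, from the fit of 10 arrays, with bars for the SE and filled points for an adjusted p below 0.05. In RA, Cyp26b1, Dhrs3 and Lrat lie below 0 in both lines, and Cyp26a1 was called in KD1 (1.26) and not in KD2 (0.38).

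Markers of extraembryonic endoderm, whose yolk sac part is known to make the retinol carriers RBP4 and TTR, were also higher in RA KD1. Of 15 such markers, 13 rose and 0 fell in RA KD1 against RA Scrambled (6 rose with all 12 arrays), Cubn (4.26), Lama1 (3.71) and Sox7 (3.41) in front. Their summed linear signal was 67535 to 72128 in RA KD1, 29541 in RA KD2 replicate 1 and 24842 to 25266 in RA Scrambled. Of the same 15, between 1 and 4 were below the median of all values on each of these arrays. In ESC KD1 against ESC Scrambled, where 0 of the 9 members were called, 4 of the 15 rose and 0 fell (0 rose with all 12 arrays). The summed signal there was 10276 to 10551, against 8762 to 9385. Mesenchymal markers went the other way, with 4 of 10 lower in RA KD1 and 0 higher, and a summed signal of 16332 to 17806, against 20270 in RA KD2 replicate 1 and 18294 to 22208 in RA Scrambled. Of 11 neural markers 2 fell and 0 rose, and of 9 trophoblast markers 2 fell and 0 rose, while 3 of 12 stem cell markers rose and 3 fell. In the fit of 12 arrays, 0 markers of these other 4 lists were called. Of all genes, 5.39% rose and 6.69% fell in RA KD1 against RA Scrambled in the fit of 10 arrays. In ESC KD1 against ESC Scrambled, 1.92% were called either way. All 12 arrays gave 2.32% of all genes called either way in RA KD1 and 0.0652% in ESC KD1. The part of these cell types in the members' differences was not tested.

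The rest of the pathway was read from lists written from general knowledge. Of 19 enzymes that interconvert retinol and retinal, 5 rose and 3 fell in RA in scrambled cells, with a list median of 0.02, where 21.8% of all genes rose and 20.8% fell. The alcohol dehydrogenase Adh1 rose by 2.81 (SE 0.38) and the retinol dehydrogenase Rdh10, which supplies retinal in the embryo, by 2.46 (SE 0.14), while Adh4 fell (-1.32). Of 6 further enzymes that can oxidise retinal or related aldehydes, 3 rose and 1 fell, among them Aldh1a1 (0.98), Aldh1a7 (0.96) and Aldh1b1 (-0.79). On each scrambled array 5 of these 6 lay below the median of all values, Aldh1a1 and Aldh1a7 among them, and so did Adh4. Of 16 carriers, storage enzymes and carotenoid cleavers, 4 rose and 2 fell, with the thyroid hormone and retinol carrier Ttr (1.89) and the lipase Lpl (1.49) ahead and Rlbp1 (-1.28) lowest. The oxidising enzymes had a median of 0.24 and the carriers 0.05, and that of all genes was -0.04. Over all 12 arrays, 2 rose and 1 fell of the 19, 1 rose and 0 fell of the 6, and 1 rose and 1 fell of the 16.

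Of 15 receptors and cofactors, 9 rose and 2 fell in RA in scrambled cells (median 0.50). The receptor Rarb rose by 5.37 (SE 0.16, adjusted p = 1.58e-07 by limma; adjusted p = 0.0573 with all 12 arrays), and the orphan receptors Nr2f2 and Nr2f1 by 5.33 and 3.71. Rarb read between 11.11 and 11.17 in RA KD1, 11.17 in RA KD2 replicate 1 and 11.52 to 11.59 in RA Scrambled, and between 6.10 and 6.51 in the ESC arrays of the fit. Of 18 retinoic acid target genes 13 rose and 0 fell (median 2.36), with the homeobox genes Meis2 (5.40), Hoxa5 (5.17) and Meis1 (4.97) in front. All 12 arrays gave 1 receptor or cofactor and 3 targets called higher.

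In RA KD1 against RA Scrambled, the receptors Rara (-0.60), Rxra (-0.58) and Nr2f2 (-0.66) fell, 3 of 15, and 0 rose, while Rarb stood at -0.42 (SE 0.16, adjusted p = 0.133 by limma). Of 18 targets, 4 fell, Foxa1 (-1.20), Hoxb5 (-0.94) and Hoxa5 (-0.83) among them, and 0 rose. Of all genes, 5.39% rose and 6.69% fell in this comparison, and 0.326% and 0.637% in KD2 over scrambled in RA. The serum retinol carrier Rbp4, the ligand of STRA6, rose by 1.39 (SE 0.26, adjusted p = 0.00821; adjusted p = 0.422 with all 12 arrays), reading 10.44 to 10.47 in RA KD1, 9.31 in RA KD2 replicate 1 and 8.86 to 9.26 in RA Scrambled. The carrier Ttr was not called, reading 8.67 to 8.84 in RA KD1, 7.95 in RA KD2 replicate 1 and 7.55 to 8.39 in RA Scrambled. Fabp5, which carries retinoic acid to another nuclear receptor, fell (-1.10, SE 0.19, adjusted p = 0.00665; adjusted p = 0.0393 with all 12 arrays). Among the retinol and retinal enzymes Akr1b8 alone was called (1.06, SE 0.13), and 0 of the 6 further oxidising enzymes passed, Aox1 being the most changed (-0.33, adjusted p = 0.0932). In KD2, 1 target rose and 1 fell, Hoxb1 (0.97, adjusted p = 0.0182) and Foxa1 (-1.28, adjusted p = 0.0206), and 0 receptors passed by limma. With all 12 arrays, Fabp5 was the 1 gene of the 5 lists called in KD1 in RA and 0 were called in KD2 in RA, where Hoxb1 turned to -0.47 (adjusted p = 0.824).

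**Figure D4:**
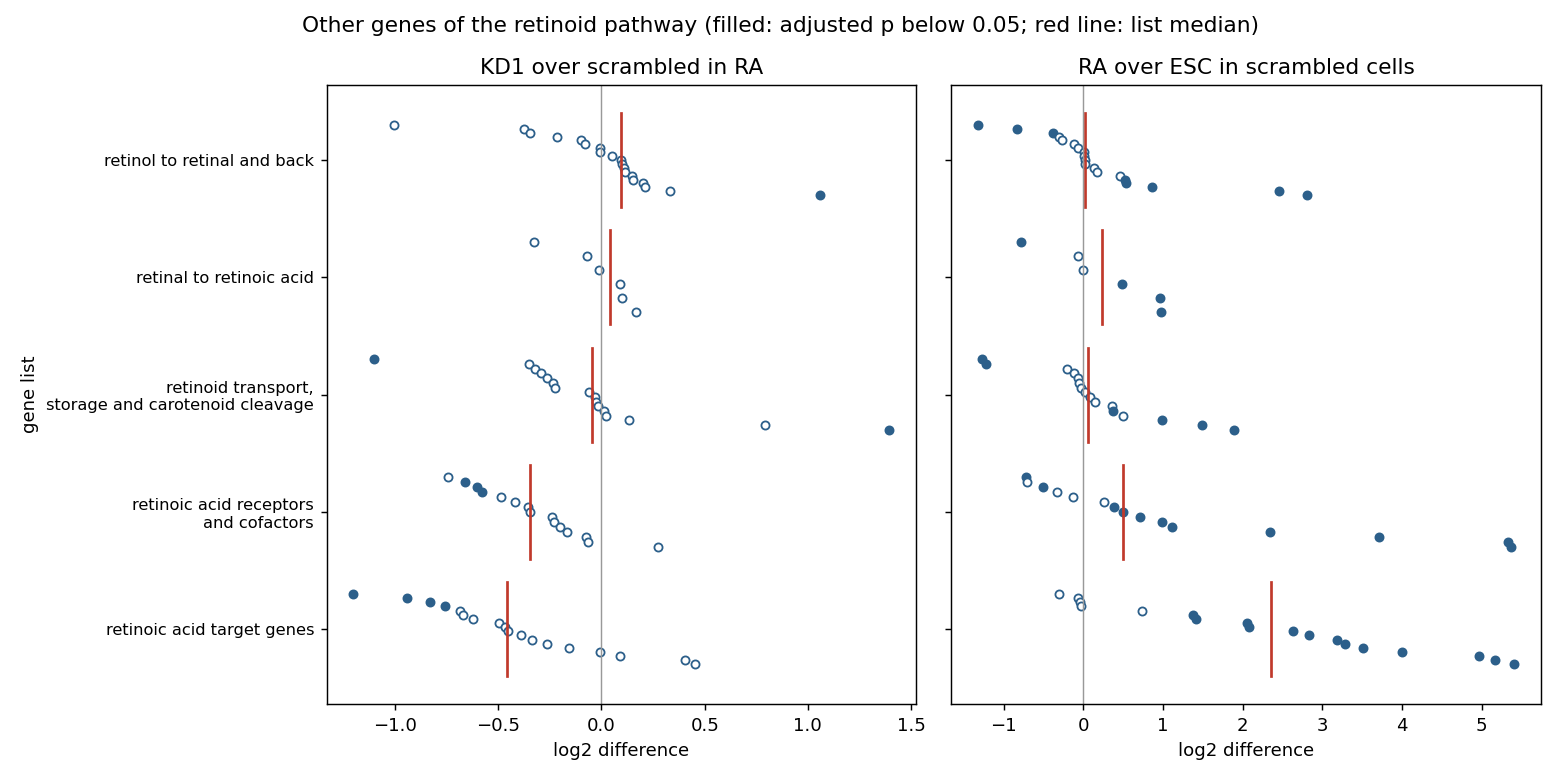
Log2 difference (x axis) of the genes in 5 retinoid pathway lists (y axis) for KD1 over scrambled in RA (left) and RA over ESC in scrambled cells (right), with 1 point per gene, filled where the adjusted p was below 0.05 in the fit of 10 arrays, and a red line at each list's median. The target list has the highest median in RA over ESC (2.36) and the lowest in KD1 over scrambled in RA (-0.46).

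The genes whose levels ran most nearly alongside each member were found by Pearson correlation over the 10 arrays of the fit, as a description. All these arrays share the same split into 2 states, and high values were common. Cdh6, a cadherin, ran closest to Cyp26a1 (0.998) and second closest to Stra6 (0.995, after Aak1 at 0.995). Hoxa3 was nearest to Cyp26b1 (0.996), Fkbp7 to Dhrs3 (0.998), Rps6ka3 to Crabp2 (0.991), Gfra3 to Aldh1a2 (0.993) and Mmp20 to Lrat (0.970). For Crabp1 it was Cebpa (0.964) and for Cyp26c1 Lrrtm4 (0.948). Over all 12 arrays, Cdh6, Fkbp7, Gfra3 and Mmp20 were again the nearest to Cyp26a1, Dhrs3, Aldh1a2 and Lrat, while Cdh6 was nearest to Stra6.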

How the data were processed

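The values deposited by the authors were on the log2 scale, 1 per probe set and array, for 35556 probe sets on 12 arrays. The submitters' processing notes name RMA, and its version is not given in the sources used here. Per the labels' protocols, each array started from 300 ng of RNA. Genes came from the platform annotation. Of the probe sets with 1 symbol, the one with the highest mean stood for its gene, for 19938 genes. Sequences came from RefSeq, GRCm38.p6.

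With limma 3.58.1 (R 4.3.3), a model of the 6 groups was fitted to 10 arrays with an intensity trend (4 residual and 4.93 prior degrees of freedom). The second KD2 array of each state was left out, and all 12 arrays are an alternative. Benjamini-Hochberg adjustment ran over all genes, and a gene was called below 0.05. The script was tested on simulated data. The labels call the replicates biological but name no separate cultures, so p-values cover only the spread between arrays within a line. The number of arrays limits the precision.

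The members, lists and tests were chosen with earlier results of these data known, and so was the fit of 10 arrays. Named list genes were at most 3 called genes with the largest change per list and comparison, otherwise the most changed, and markers were named by the same rule. Alternatives were all 12 arrays, scrambled and KD1 arrays only, a replicate block, no intensity trend, the mean of a gene's probe sets, no dim genes, quantile normalization, and each scrambled or KD1 array left out.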

Additional observations from a re-analysis of the deposited data

Results flagged for a closer look

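The change from ESC to RA differed between KD1 and scrambled cells for 3 of the 9 genes by the test of the difference itself, in the limma fit of 10 arrays. For Cyp26a1 the change was 5.89 in KD1 and 4.75 in scrambled cells, a difference of 1.14 (adjusted p = 0.0414). It was not called without ESC Scrambled replicate 1 (adjusted p = 0.0614), RA Scrambled replicate 2 (0.0666), ESC KD1 replicate 1 (0.105) or 2 (0.102), or RA KD1 replicate 1 (0.136) or 2 (0.185). For Cyp26b1 the change was 2.11 in KD1 and 3.28 in scrambled cells, a difference of -1.18 (adjusted p = 0.0169). It was not called without RA Scrambled replicate 1 (adjusted p = 0.0713) or 2 (0.051), ESC KD1 replicate 1 (0.0559), or RA KD1 replicate 1 (0.0827) or 2 (0.0757). For Lrat the change was -0.19 in KD1 and 1.07 in scrambled cells, a difference of -1.26 (adjusted p = 0.0219). It was not called without RA Scrambled replicate 1 (adjusted p = 0.0639), ESC KD1 replicate 1 (0.0722) or 2 (0.0585), or RA KD1 replicate 1 (0.087). The directions held in each of these fits. With all 12 arrays as labelled the adjusted p was 0.985, 0.918 and 0.119 for Cyp26a1, Cyp26b1 and Lrat.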

How the results depend on the processing

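With all 12 arrays as labelled, members called fell to 3 (RA over ESC in scrambled cells), 2 (in KD1), 0 (in KD2), 1 (KD1 over scrambled in RA), 0 (KD2 over scrambled in RA), 0 (KD1 over KD2 in RA) and 0 (RA change in KD1 minus that in scrambled). That fit adds the arrays that resembled the other state to the pooled spread. It reversed 3 values, Dhrs3 (-0.0007) and Crabp2 (-0.37) for RA over ESC in KD2 and Crabp2 for KD2 over scrambled in RA (-0.59), none of them called. Of 32 called differences, 6 were called there too, 23 kept their direction but were not called, and the other 3 are those reversed.

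With a replicate block within each state, members called were 8 for KD1 over scrambled in RA, 5 for KD1 over KD2 in RA, 5 for the RA change in KD1 minus that in scrambled, 1 for KD2 over scrambled in ESC and 1 for the RA change in KD2 minus that in scrambled, and all 32 called differences stayed called. More of all genes were called too in each of these comparisons, so the added calls are not a result about the members alone. KD1 over scrambled in RA gave 4786 of 19938 genes (2407 in the main fit). The RA change in KD1 minus that in scrambled gave 2874 (961 in the main fit). The labels give no shared day or culture, so the numbers were not taken as pairs. Same-numbered arrays of Scrambled and KD1 did deviate together in ESC (correlation 0.633), and less in RA (0.15). The main fit does not model this. For KD1 over scrambled in ESC, the block gave 0 called members, as the main fit did, and 2098 of all genes (383 in the main fit). Without dim genes, 1 member was called for KD2 over scrambled in RA. No intensity trend, mean probe sets and quantile normalization kept all 32 calls, and scrambled and KD1 arrays alone kept the 23 that could be fitted.

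Leaving out 1 array gave 7 to 8 called members for RA over ESC in scrambled cells, 6 to 7 in KD1 and 6 to 6 in KD2. It gave 0 to 0 for KD1 over scrambled in ESC, 3 to 7 in RA, 0 to 1 for KD2 over scrambled in ESC, 0 to 3 in RA, and 0 to 2 for KD1 over KD2 in RA. For the RA change minus that in scrambled it gave 0 to 3 in KD1 and 0 to 2 in KD2. The number of all genes called also changed from fit to fit, so these ranges are not results about the members alone. For KD1 over scrambled in RA, the fits with the most members called were also those with the most genes called. A fit without the single KD2 arrays cannot give KD2 values. Cyp26c1 and, outside RA Scrambled, Lrat lay under the median of all values.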
